A study of Drosophila melanogaster with 6 samples.

Results

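Neurons signal by fusing transmitter-filled vesicles with the membrane of the nerve terminal, a step that SNARE proteins carry out and that calcium triggers at release sites called active zones. Enzymes and transporters make, load and recover each transmitter, voltage-gated channels shape the electrical signal that opens the way for calcium, and receptors on the next cell read the transmitter. In the fly, acetylcholine is the main fast excitatory transmitter of the central nervous system and glutamate that of the nerve-muscle junction. The genes described here are 40 well-known components of this machinery, chosen by name as vesicle, transmitter and ion channel genes. Of these, 36 were read by at least 1 probe set that the platform's annotation pairs with a single gene, out of 11981 genes read that way. Syt1, Syx1A, comt and Trh were not paired with such a probe set and were not analysed here.

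RNA came from whole Drosophila melanogaster larvae of instar 1. The mutant-labelled group carried the Pof allele D119 of the study's title and had 3 arrays; the wild type group, whose stock the labels do not name, also had 3. Pools of 200 larvae went into each replicate, both sexes and all tissues together, and the study's design text calls the replicates biological. The Pof protein is known as one that coats chromosome 4, and no source used here says what the allele does to the gene. In whole-larva RNA, fewer neurons and less RNA per neuron cannot be told apart, and neurons share the sample with muscle, gut, fat body and epidermis.

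Values are log2 expression values of the brightest probe set of each gene, and a difference is mutant-labelled minus wild type on that scale. A call is an adjusted p under 0.05 in limma, adjusted over 18769 probe sets. Pof, the targeted gene, read 8.35, 8.44 and 8.43 on the mutant-labelled arrays and 6.74, 6.83 and 6.82 on the wild type arrays. Its signal was thus higher under the mutant label (difference 1.61, SE 0.07, limma adjusted p = 9.47e-05), and all directions below rest on the labels. Array medians lay between 6.46 and 6.56. Wild type replicate 1 stood apart from wild type replicates 2 and 3 (r = 0.980 and 0.979, against 0.998 between those). On Pof mutant replicate 2 the 3' minus 5' difference of the control genes was 2.03, against 1.20 and 1.28 on the other mutant-labelled arrays and 1.37 to 1.48 on the wild type arrays. Values without these arrays stand beside many of the results they move, and further sign changes stand in the closing section.

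None of the 36 genes passed the test between the groups. By limma 0 were called higher and 0 lower, where 4.09% of all genes were called, 2.65% higher and 1.44% lower. Without adjustment, 1 gene (slo) was higher and 4 (Tbh, SerT, Vmat and Rim) were lower with p under 0.05, where 16.8% of all genes reached that level, 10.5% higher and 6.31% lower. Differences ran from -0.46 for Tbh to 0.34 for slo, with a median of -0.075, against a median of 0.022 over all genes. A negative difference was found for 24 of the 36 genes (66.7%) and for 43.3% of all genes. The values of the groups overlapped for 33 genes. They lay apart for Tbh and SerT, both lower on the mutant-labelled arrays, and for Rop, higher there; of all genes 22.4% lay apart, 7.95% lower and 14.5% higher.

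The arrays set bounds on these differences. The 95% interval of the difference, not adjusted for the number of genes, lay within a 1.5-fold change in either direction for 27 of the 36 genes and within a 2-fold change for 35. The remaining gene was Ddc. Within a 1.25-fold change it lay for 5 genes (13.9%), against 45.1% of all genes. Among all genes the interval lay within 1.5-fold for 84.3% and within 2-fold for 94.7%.

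**Figure D1:**
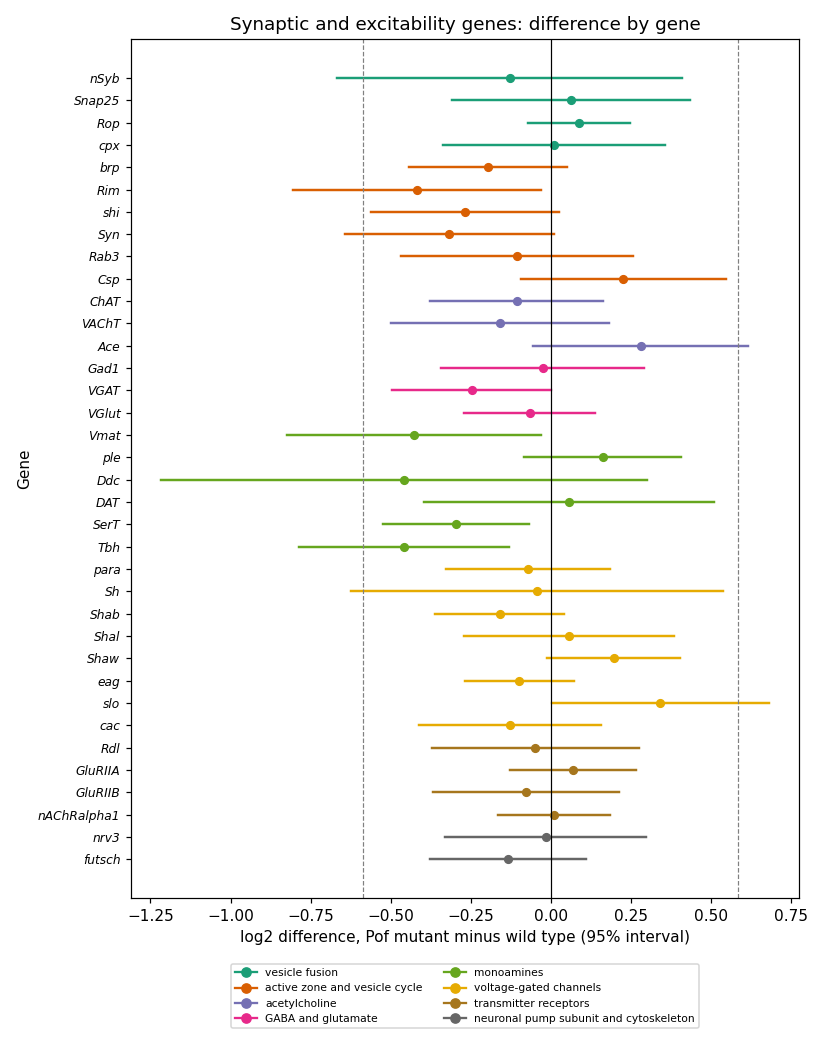
Log2 difference of each of the 36 genes, mutant-labelled minus wild type (x axis), by gene and coloured by role (y axis); points are limma estimates over 3 arrays a group, lines their 95% intervals, and the dashed lines mark 1.5-fold changes. Intervals of 27 genes lie between the dashed lines, and the points run from -0.46 for Tbh to 0.34 for slo.

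Of 7 listed genes of the fusion machinery 4 were read, with differences from -0.13 to 0.088. nSyb, the vesicle SNARE synaptobrevin, read 8.26, 7.41 and 8.30 on the mutant-labelled arrays and 8.03, 8.19 and 8.13 on the wild type arrays. The low value was that of Pof mutant replicate 2. The difference was -0.13 with all arrays and 0.16 without that array (limma adjusted p = 0.891 and 0.466). Its 95% interval with all arrays was wide, from -0.67 to 0.41. Snap25, a SNARE of the terminal membrane, differed by 0.063 (95% interval -0.31 to 0.43). Its values were 10.45, 10.83 and 10.86 on the mutant-labelled arrays and 10.38, 10.86 and 10.71 on the wild type arrays, so the groups overlapped. The SNARE-binding gene Rop, of the Sec1/Munc18 family, read 9.46, 9.41 and 9.46 on the mutant-labelled arrays and 9.29, 9.41 and 9.36 on the wild type arrays. The lowest mutant-labelled and highest wild type values were equal at this precision, and the difference was 0.088 (SE 0.067, adjusted p = 0.680). For cpx, whose product complexin clamps assembled SNAREs, the brightest probe set differed by 0.0099 (95% interval -0.34 to 0.36). A dimmer cpx probe set had values of 7.54, 6.56 and 8.37 on the mutant-labelled arrays and 7.88, 7.97 and 8.05 on the wild type arrays. That probe set differed by -0.48 (95% interval -1.41 to 0.46). Its lowest value was again on Pof mutant replicate 2, and the part of RNA quality in either gene's value was not tested.

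The genes of active zones and of the vesicle cycle had negative differences for 5 of 6 members, with a median of -0.23, and 0 were called. Rim, a scaffold that ties vesicles and calcium channels to the active zone, read 9.10, 9.45 and 9.14 on the mutant-labelled arrays and 9.32, 9.90 and 9.73 on the wild type arrays. These groups overlapped only between Pof mutant replicate 2 and wild type replicate 1, with a difference of -0.42 (SE 0.16, limma adjusted p = 0.323). Syn, encoding the vesicle-binding phosphoprotein synapsin, read 10.0004, 10.23 and 10.21 on the mutant-labelled arrays and 10.16, 10.59 and 10.64 on the wild type arrays. Again only wild type replicate 1 fell within the mutant-labelled range (difference -0.32, SE 0.14, adjusted p = 0.384). Without wild type replicate 1 both genes were called lower: Rim at -0.58 (adjusted p = 0.0498) and Syn at -0.47 (adjusted p = 0.0485). Over the settings tried, the adjusted p ran from 0.00509 to 0.660 for Rim and from 0.0285 to 0.695 for Syn. The dynamin gene shi, needed to pinch off recycled vesicles, differed by -0.27 (95% interval -0.56 to 0.025), and by -0.15 without Pof mutant replicate 2. Its remaining probe sets gave -0.073 and -0.067. Rab3, a vesicle GTPase, differed by -0.11, and by -0.27 without wild type replicate 1, and the active zone protein gene brp by -0.19. The chaperone gene Csp, named for the cysteine string protein of vesicles, was the exception in sign, with a difference of 0.23 (95% interval -0.093 to 0.55), and of 0.11 without wild type replicate 1.

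Several of these genes were read by more than 1 probe set, and the probe sets did not give 1 answer. Of the 36 genes 12 had over 1 single-gene probe set, 60 probe sets in all. The only call among the 60 was a dimmer probe set of Rim, against 1.14% of all probe sets called lower. It read 7.37, 6.90 and 7.16 on the mutant-labelled arrays and 7.73, 7.86 and 7.72 on the wild type arrays. All mutant-labelled values lay below all wild type values, and the difference was -0.63 (SE 0.12, limma adjusted p = 0.0430). That call was lost without wild type replicate 2 or 3 or without Pof mutant replicate 2 or 3 (adjusted p 0.0655 to 0.181) and without moderated variances (0.223). It was also lost with the replicate number as a block (adjusted p = 0.0718). The third Rim probe set differed by -0.29, and the mean over the Rim probe sets by -0.45 (adjusted p = 0.0480). With means over probe sets Rim was the only member called, where 1.49% of all genes were called lower and 2.77% higher. For brp, probe sets differed in sign: -0.19 and -0.33 for the brighter ones and 0.13 and 0.18 for the dimmer ones, none of them called. The Sh gene had the most probe sets, 7, with differences from -0.13 to 0.054.

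**Figure D2:**
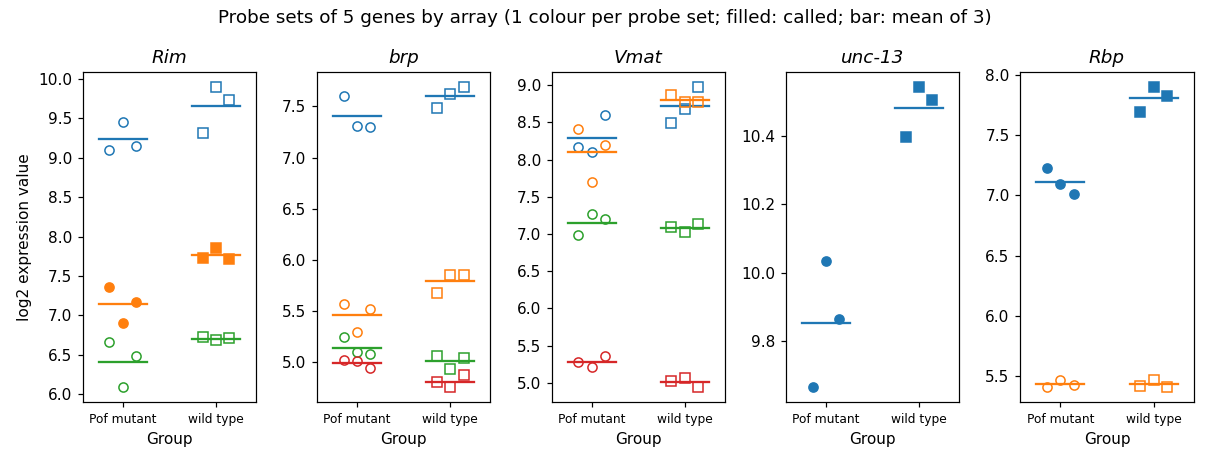
Log2 expression values (y axis) of every single-gene probe set of Rim, brp and Vmat, and of unc-13 and Rbp, on the 3 mutant-labelled arrays (circles, left) and the 3 wild type arrays (squares, right); 1 colour per probe set, filled symbols are called, bars are means of 3. In Rim the filled probe set differs by -0.63, while in brp and Vmat the brighter and dimmer probe sets lie on opposite sides of 0 in their differences.

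Genes of the fast transmitters acetylcholine, GABA and glutamate gave 0 calls among 6. ChAT, which makes acetylcholine, and VAChT, which loads it into vesicles, lie in 1 locus with overlapping gene spans in the RefSeq table. ChAT read 9.50, 9.67 and 9.41 on the mutant-labelled arrays and 9.43, 9.78 and 9.69 on the wild type arrays. VAChT read 8.96, 9.23 and 8.97 on the mutant-labelled arrays and 8.91, 9.34 and 9.39 on the wild type arrays. The groups overlapped for both genes, with differences of -0.11 and -0.16 (limma adjusted p = 0.794 and 0.740). Without wild type replicate 1 they were -0.21 and -0.31. Ace, the acetylcholinesterase that clears the transmitter, differed by 0.28 (95% interval -0.055 to 0.62, adjusted p = 0.469). Gad1, the enzyme that makes GABA, differed by -0.026 (95% interval -0.34 to 0.29), and by -0.15 without wild type replicate 1. The vesicular GABA transporter gene VGAT read 7.50, 7.24 and 7.23 on the mutant-labelled arrays and 7.44, 7.70 and 7.57 on the wild type arrays. These groups overlapped only between Pof mutant replicate 1 and wild type replicate 1 (difference -0.25, SE 0.11, adjusted p = 0.372). Without wild type replicate 1 the VGAT difference was -0.31. The vesicular glutamate transporter gene VGlut differed by -0.066 (95% interval -0.27 to 0.14).

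Monoamine genes had a median difference of -0.36 over 6 genes, and again 0 were called. Without wild type replicate 1 that median was -0.26, against -0.31 for active zone and vesicle cycle genes. Tbh, which turns tyramine into octopamine, read 7.05, 6.64 and 7.20 on the mutant-labelled arrays and 7.43, 7.44 and 7.40 on the wild type arrays. No mutant-labelled value reached the wild type range, and the difference was -0.46 (95% interval -0.79 to -0.13, limma adjusted p = 0.178). The lowest value was on Pof mutant replicate 2, and without that array the difference was -0.30. SerT, which takes serotonin back up, read 8.36, 8.18 and 8.06 on the mutant-labelled arrays and 8.40, 8.56 and 8.54 on the wild type arrays. Those groups lay apart by a small margin, with a difference of -0.30 (SE 0.10, adjusted p = 0.212). SerT was called lower with array weights (-0.39, adjusted p = 0.0335) and in no other setting, and that fit called 0 members higher. With array weights 2.72% of all genes were called lower and 4.29% higher.

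Vmat, which loads all monoamines into vesicles, read 8.17, 8.10 and 8.60 on the mutant-labelled arrays and 8.49, 8.68 and 8.98 on the wild type arrays on its brightest probe set. The groups overlapped only between Pof mutant replicate 3 and wild type replicate 1 (difference -0.43, SE 0.17, limma adjusted p = 0.320). Without wild type replicate 1 the difference was -0.54. The next Vmat probe set read 8.42, 7.70 and 8.20 on the mutant-labelled arrays and 8.86, 8.77 and 8.77 on the wild type arrays. It lay apart between the groups with a difference of -0.69 (adjusted p = 0.0980), and the remaining 2 gave 0.068 and 0.27. The probe set at 0.27 lay apart as well, higher on the mutant-labelled arrays (limma adjusted p = 0.127). It was dim, with means of 5.28 on the mutant-labelled and 5.01 on the wild type arrays. The uptake gene of dopamine, DAT, differed by 0.058 (95% interval -0.39 to 0.51). It was dim, and on Pof mutant replicate 1 (5.07) and wild type replicate 1 (4.73) it lay under the lower quartile of the array. The tyrosine hydroxylase gene ple, which opens dopamine synthesis, averaged 4.06 ± 0.18 on the mutant-labelled arrays and 3.90 ± 0.09 on the wild type arrays (SD, n = 3 each). Both means were under the lower quartiles of all 6 arrays, which ran from 5.11 to 5.24, and the difference of 0.16 is uncertain in size.

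Ddc stood out within this group through 1 array. The enzyme makes dopamine and serotonin in neurons and is also known for its role in hardening the cuticle in epidermis. It read 8.18, 8.16 and 8.05 on the mutant-labelled arrays and 9.43, 8.21 and 8.12 on the wild type arrays. The high value was that of wild type replicate 1, 1.27 higher than the mean of wild type replicates 2 and 3. The difference was -0.46 with all arrays and -0.035 without that array. On the same array 16 of 17 measured epidermis and cuticle markers lay above both other wild type arrays, and the mean over those markers was 10.6, against 7.89 and 7.90 on the other wild type arrays and 7.77 to 8.05 on the mutant-labelled arrays. The part of epidermis in the Ddc value was not tested.

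Voltage-gated channel genes had differences on both sides of 0, 3 positive and 5 negative, with a median of -0.057. The widest was that of slo, the calcium-activated potassium channel, with 8.44, 7.94 and 8.48 on the mutant-labelled arrays and 7.97, 7.94 and 7.92 on the wild type arrays. Pof mutant replicates 1 and 3 were high, and Pof mutant replicate 2 lay within the wild type range (difference 0.34, SE 0.14, limma adjusted p = 0.363). Without Pof mutant replicate 2 slo was called higher at 0.52 (adjusted p = 0.0247), and over the settings tried its adjusted p ran from 0.0125 to 0.638. para, the main voltage-gated sodium channel, averaged 6.33 ± 0.19 on the mutant-labelled arrays and 6.41 ± 0.08 on the wild type arrays (SD, n = 3 each; 95% interval of the difference -0.33 to 0.18). cac, the calcium channel that triggers vesicle release, differed by -0.13 (95% interval -0.41 to 0.16), and by -0.23 without Pof mutant replicate 2. Among the potassium channels, the differences were -0.043 for Sh, -0.16 for Shab, 0.056 for Shal, 0.20 for Shaw and -0.099 for eag. Of the channel genes Sh varied most within groups, with an SD of 0.39 on the mutant-labelled arrays and 0.40 on the wild type arrays, and its interval ran from -0.62 to 0.54. The 2 Shaw probe sets disagreed in sign, at 0.20 and -0.046.

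Receptor genes had a median absolute difference of 0.059 over 4 genes, against 0.128 over the 36. Rdl, the GABA-gated chloride channel, differed by -0.048 (95% interval -0.37 to 0.27), and by -0.20 without Pof mutant replicate 2. GluRIIA and GluRIIB, alternative subunits of the glutamate receptor of larval muscle, lie next to each other on arm 2L. GluRIIA averaged 7.81 ± 0.13 on the mutant-labelled arrays and 7.74 ± 0.02 on the wild type arrays, and GluRIIB 7.50 ± 0.22 on the mutant-labelled arrays and 7.57 ± 0.12 on the wild type arrays (SD, n = 3 each). Their differences were 0.069 and -0.078, and without Pof mutant replicate 2 they were -0.0045 and -0.20. nAChRalpha1, a subunit of the nicotinic acetylcholine receptor, differed by 0.011 (95% interval -0.16 to 0.19). Of the remaining genes, nrv3, a beta subunit of the sodium pump known from neurons, differed by -0.016 and futsch, a microtubule-binding protein of axons and terminals, by -0.13.

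**Figure D3:**
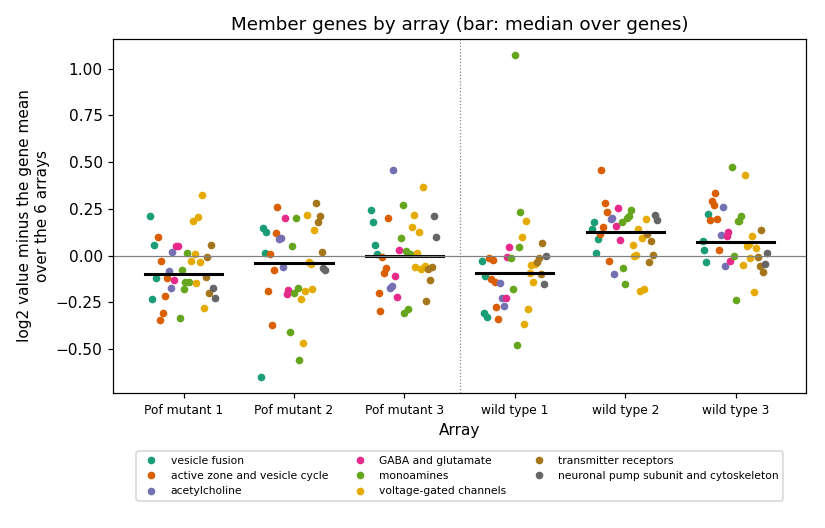
Log2 value of each of the 36 genes minus its mean over the 6 arrays (y axis), for the 3 mutant-labelled arrays (left) and the 3 wild type arrays (right); points are genes coloured by role and bars are medians over genes. The medians are -0.097, -0.040 and 0.00098 on the mutant-labelled arrays and -0.095, 0.13 and 0.071 on the wild type arrays; the highest point on wild type 1 is Ddc.

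The wild type arrays were not alike for these genes. On wild type replicate 1, 27 of the 36 genes (75.0%) lay below both other wild type arrays and 6 lay above both, where 49.3% and 30.8% of all genes did. All 13 genes of vesicle fusion, active zones and acetylcholine were among the 27. The median shift of that array against the mean of wild type replicates 2 and 3 was -0.18 over the 36 genes and -0.040 over all genes. Between replicates 2 and 3 the median shift was 0.030 for the 36 genes.

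Leaving wild type replicate 1 out moved the comparison. Over the 36 genes, 14 differences then moved by over 1.5 times with their sign kept and 4 changed sign; without Pof mutant replicate 2 the counts were 13 and 9. The median difference was -0.15 without that array (0.019 over all genes), and 28 of 36 differences were negative. Rim and Syn were then called lower and 0 genes higher, 2 of 36 genes, where 1.88% of all genes were called lower and 2.60% higher. Without Pof mutant replicate 2 alone, 0 genes were called lower and slo higher, where 0.943% of all genes were called lower and 1.56% higher. Without both arrays, Rim (-0.69), Syn (-0.51) and VAChT (-0.40) were called lower and slo (0.53) higher, at limma adjusted p of 0.00509, 0.0285, 0.0433 and 0.0125. In that comparison 2.78% of all genes were called lower and 3.16% higher, and the median was -0.17 over the 36 genes and 0.022 over all genes. With wild type replicate 2 or 3 left out the medians were -0.048 and -0.066.

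**Figure D4:**
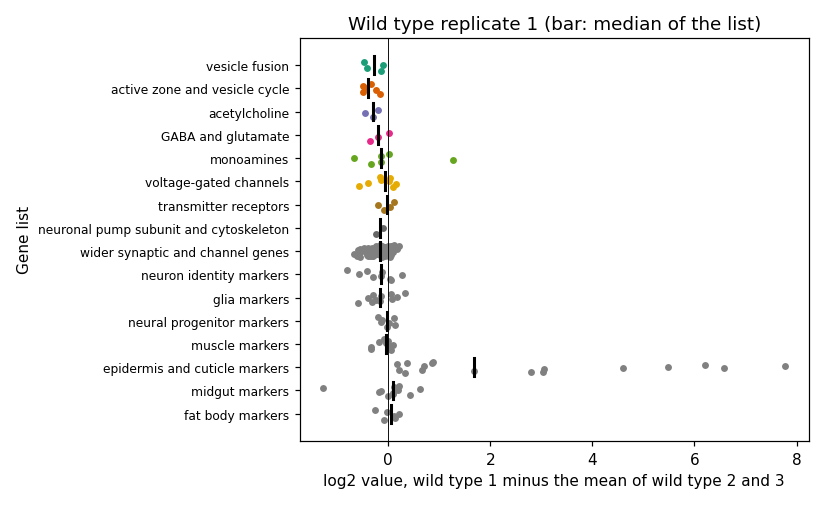
Log2 value on wild type replicate 1 minus the mean of wild type replicates 2 and 3 (x axis) for the 36 genes by role, the wider synaptic and channel genes and the marker lists (y axis); points are genes and bars medians of a list. The median is -0.39 for active zone and vesicle cycle genes and 1.69 for epidermis and cuticle markers.

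**Figure D5:**
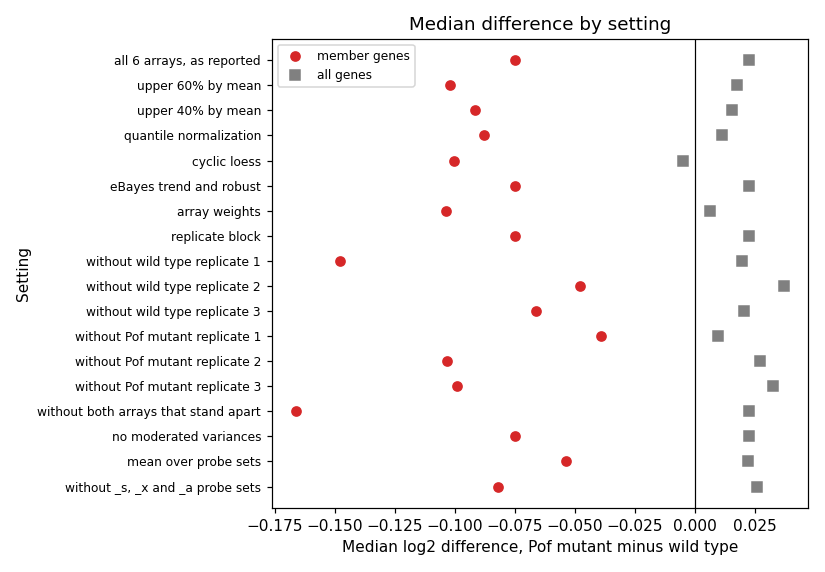
Median log2 difference, mutant-labelled minus wild type (x axis), of the member genes (circles) and of all genes (squares) under each setting (y axis). The member median stays below 0 in every setting drawn, between -0.17 without both arrays that stand apart and -0.039 without Pof mutant replicate 1. Trended robust variances, the replicate block and no moderation cannot move the median and repeat the reported one.

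A wider list of 93 genes, drawn up for the same pathways, was read for 81 genes. It includes Syp, which in the fly is the RNA-binding protein gene Syncrip and no vesicle gene (difference -0.0032). Of the 81, 0 were called higher and 2 lower, both genes of vesicle release at the active zone, where 2.65% of all genes were called higher and 1.44% lower. The median difference was -0.018. Without both arrays that stand apart 0 were called higher and 9 lower, with a median of -0.12, where 3.16% of all genes were called higher and 2.78% lower. Rbp, the RIM-binding protein that links calcium channels to the release site, read 7.23, 7.10 and 7.01 on the mutant-labelled arrays and 7.69, 7.90 and 7.82 on the wild type arrays. The groups lay well apart, with a difference of -0.69 (SE 0.09, limma adjusted p = 0.00860), which is 1.62-fold lower. A dimmer Rbp probe set averaged 5.44 ± 0.03 on the mutant-labelled arrays and 5.43 ± 0.03 on the wild type arrays (SD, n = 3 each), with a difference of 0.0018. The call rests on a probe set of the suffix _a, which can match several transcripts. It was lost without moderated variances (adjusted p = 0.10), and kept in each fit that left 1 array out (0.00571 to 0.0495).

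The vesicle priming gene unc-13, on chromosome 4, read 9.66, 10.03 and 9.86 on the mutant-labelled arrays and 10.40, 10.54 and 10.51 on the wild type arrays. Those groups lay apart as well, with a difference of -0.63 (SE 0.11, limma adjusted p = 0.0249). The median difference over all genes of chromosome 4 was -0.14, against 0.016 to 0.033 on the large arms. The call was lost without wild type replicate 2 or 3, without Pof mutant replicate 1 or 3 (adjusted p 0.0566 to 0.118) and without moderated variances (0.167). Like that of Rbp, it rests on a probe set of the suffix _a, and unc-13 had no other single-gene probe set. The other genes of release and recycling with the smallest p were Rph (-0.37), EndoA (0.22) and Cadps (-0.30), none of them called with all arrays. Cadps too lies on chromosome 4, and EndoA was at 0.11 without Pof mutant replicate 2. Cadps and Rph were called lower without both arrays that stand apart, at -0.63 and -0.72 (adjusted p = 0.0167 and 0.0292).

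The receptor, monoamine and channel genes of the wider list gave 0 calls among 60 with all arrays. Without both arrays that stand apart, 1 GABA and glutamate receptor gene, 2 monoamine genes and 1 channel gene were called lower. In that fit 0 of these genes were called higher, where 2.78% of all genes were called lower and 3.16% higher. The widest of the glutamate and GABA receptor genes was GluRIID, a required subunit of the muscle glutamate receptor. It read 6.55, 6.96 and 6.71 on the mutant-labelled arrays and 7.21, 7.31 and 7.15 on the wild type arrays. The groups lay apart (difference -0.49, SE 0.11, limma adjusted p = 0.0797), and the gene was called lower without Pof mutant replicate 2 (-0.60, adjusted p = 0.0319), without both arrays that stand apart (0.0135) and with array weights (0.0188). Octbeta1R, an octopamine receptor, read 8.58, 7.76 and 8.58 on the mutant-labelled arrays and 8.94, 9.04 and 8.94 on the wild type arrays. Its lowest value was on Pof mutant replicate 2, and the difference was -0.67 (SE 0.21, adjusted p = 0.200), and -0.40 without that array. The dopamine receptor gene Dop1R1 differed by -0.37 (adjusted p = 0.157) and the octopamine synthesis gene Tdc2 by -0.16. Among acetylcholine receptor genes the smallest p were those of nAChRalpha5 (-0.21), nAChRalpha2 (-0.14) and nAChRbeta3 (-0.11). Among channel genes they were those of the leak channel gene Ork1 (0.24), the inward rectifier gene Irk1 (-0.26) and stj (-0.38), a calcium channel subunit gene, with 0 of them called on all arrays and Irk1 called lower with array weights (-0.32, adjusted p = 0.0472).

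Markers of the cell types in the sample were read beside these genes. Of 9 neuron identity markers 0 were called, 7 had negative differences and the median was -0.060. Their mean level was 8.21 to 8.64 on the mutant-labelled arrays and 8.52 to 8.79 on the wild type arrays. The pan-neuronal RNA-binding gene elav read 9.17, 8.06 and 9.68 on the mutant-labelled arrays and 9.63, 9.57 and 9.58 on the wild type arrays. Its low value was on Pof mutant replicate 2, and the difference was -0.62 (SE 0.36, limma adjusted p = 0.549), and -0.17 without that array. The RNA-binding gene fne, of the same family, read 9.28, 10.10 and 9.63 on the mutant-labelled arrays and 10.52, 10.66 and 10.32 on the wild type arrays. Its groups lay apart, with a difference of -0.83 (SE 0.20, adjusted p = 0.0912), and fne was called lower without Pof mutant replicate 2 (-1.04, adjusted p = 0.0254). The differences of onecut and Nrg were -0.40 and -0.23, and those of Appl, beat-Ia, CadN, Rbp9 and jeb ran from -0.060 to 0.042. The jeb probe set was dim, with means of 4.34 on the mutant-labelled and 4.30 on the wild type arrays. Both lay under the lower quartile of every array. Without both arrays that stand apart 2 of the 9 were called lower, fne and onecut, with a median of -0.19. Of these onecut lies on chromosome 4. Of 11 glia markers 0 were called with all arrays, 8 had positive differences and the median was 0.098. Their mean levels were 8.82 to 8.89 on the mutant-labelled arrays and 8.72 to 8.90 on the wild type arrays. The glia marker repo was called lower without wild type replicate 1 (-0.47, adjusted p = 0.0247) and without both arrays (-0.46, adjusted p = 0.0285). The median over the 11 was 0.019 without wild type replicate 1 (5 negative) and -0.0065 without both arrays (6 negative). Of 17 epidermis and cuticle markers 0 were called with all arrays, 15 had negative differences and the median was -0.66. That median was 0.039 without wild type replicate 1, with 1 called higher and 1 lower. Without both arrays it was 0.077, with 2 called higher and 1 lower. Of 9 muscle markers and of 6 fat body markers 0 were called with all arrays as well. The fat body marker apolpp was called higher without wild type replicate 1 (0.48, adjusted p = 0.0320) and without both arrays (0.44, adjusted p = 0.0379). Like onecut, apolpp lies on chromosome 4. Without wild type replicate 1, 1.88% of all genes were called lower and 2.60% higher. Without both arrays 2.78% were called lower and 3.16% higher. Of 7 neural progenitor markers 1 was called: pros, a transcription factor gene of dividing neural precursors and their daughters, was lower on the mutant-labelled arrays (-1.21, SE 0.11, adjusted p = 0.00246). The other progenitor markers did not share a change of that size. Their differences ran from -0.15 to 0.28, and the median over the 7 was -0.086. Of 12 midgut markers 5 were called higher and 2 lower, and 2 higher and 1 lower without Pof mutant replicate 2. Over all genes 2.65% were called higher and 1.44% lower with all arrays, and 1.56% and 0.943% without that array. The part of cell composition in the values of the 36 genes was not tested.

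The X chromosome held 7 of the 36 genes with a median difference of -0.13. Arm 2L held 6 (median -0.041), arm 2R 6 (-0.22), arm 3L 9 (0.056) and arm 3R 8 (-0.049), and chromosome 4 held 0. The medians over all genes lay between 0.016 and 0.033 on the arms that held members and at -0.14 on chromosome 4.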

How the data were processed

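The authors deposited log2 values, 1 per probe set and array, computed with RMA per the submitters' processing notes, which give no version here. RMA usually brings all arrays to nearly 1 distribution, which would hide a shift common to most genes, and it shrinks differences of dim probe sets. Detection calls were not used here, and 3 arrays a group limit the precision.

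After 183 control probe sets were left out, 18769 entered 1 fit of both groups without covariates (lmFit and eBayes of limma 3.58.1, R 4.3.3), with Benjamini-Hochberg adjustment. Of these, 13646 had 1 gene symbol, 402 several and 4721 none; symbols were updated through 13543 gene IDs of a RefSeq table (assembly Release 6 plus ISO1 MT), used for names, arms and neighbours. Each gene stands on its brightest single-gene probe set, by the mean over all arrays. The members, the wider lists, the markers and the tests were chosen by hand with earlier results of these data known. Named were all members, called genes of the wider lists and up to 3 more of each list by smallest p. The neuron identity markers, pros, repo and apolpp were named after their values were seen. Same-numbered arrays were checked for pairing. On simulated data of the 18769 probe sets, 53.2% of 1.5-fold and 84.6% of 2-fold changes were called (5 runs of 200 changed probe sets), with 6.6 false calls on average. The simulated noise was normal and independent between probe sets and arrays, so it held no shift of a whole array. Changed probe sets were picked at random. The median SE was 0.13 over the 36 genes and 0.096 over all genes, so these rates are not those of the 36 genes. Alternatives were filters on dim probe sets (upper 60% and 40%), quantile and cyclic loess normalization, trended robust variances, array weights, a replicate block, leaving arrays out, other choices among a gene's probe sets, an adjusted p under 0.10 and no moderation. Leaving out arrays for the wider and marker lists was chosen after seeing the data.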

Additional observations from a re-analysis of the deposited data

How the results depend on the processing

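With the reported settings 0 of the 36 genes were called in either direction. The count was also 0 both ways after either filter on dim probe sets, quantile or cyclic loess normalization, trended robust variances, without moderated variances, without probe sets of the suffixes _s, _x and _a, at an adjusted p under 0.10 and with the replicate block. Leaving out single arrays gave 0 to 2 genes lower and 0 to 1 higher; leaving out both wild type replicate 1 and Pof mutant replicate 2 gave 3 lower and 1 higher. Array weights gave 1 lower (SerT), and the mean over probe sets 1 lower (Rim). The median difference moved most without both arrays, to -0.17. Of 588 recomputed differences of single genes 533 kept their direction and side of the threshold, 9 passed it and 46 changed sign, in 17 genes. Filters on dim probe sets, trended robust variances, the replicate block and no moderation leave each difference unchanged, so no sign could change there. The same holds for the probe set mean of a gene with 1 probe set. It also holds for genes already on a probe set without such a suffix, in the fit limited to those. The share that kept its direction is therefore partly fixed in advance. Rbp of the wider list, called lower with the reported settings, was at 0.0018 when such suffixes were left out, where its dimmer probe set stands for the gene. Sign changes with single arrays left out spanned -0.28 to 0.16 for nSyb, -0.073 to 0.20 for Snap25, -0.15 to 0.12 for cpx, -0.15 to 0.047 for Gad1, -0.11 to 0.0094 for VGlut, -0.17 to 0.17 for DAT, -0.17 to 0.027 for para, -0.24 to 0.18 for Sh, -0.073 to 0.14 for Shal, -0.20 to 0.060 for Rdl, -0.0045 to 0.12 for GluRIIA, -0.20 to 0.0014 for GluRIIB, -0.030 to 0.048 for nAChRalpha1 and -0.13 to 0.090 for nrv3. Without both arrays the differences were 0.12 for nSyb, -0.13 for Snap25, -0.21 for cpx, 0.016 for VGlut, -0.25 for DAT, 0.060 for para and -0.17 for Shal. With array weights they were -0.084 for cpx, -0.086 for DAT, 0.025 for para, -0.035 for Shal and 0.017 for nrv3. Quantile normalization gave 0.012 for Gad1, -0.013 for nAChRalpha1 and 0.015 for nrv3, and cyclic loess -0.012 for cpx and -0.020 for nAChRalpha1. The mean over probe sets gave -0.23 for cpx and 0.0045 for cac, and the fit limited to probe sets with no such suffix -0.046 for Shaw and 0.052 for futsch. The cause of these changes was not tested.

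Arrays of the same number shared deviations from their group means with r = 0.18, 0.13 and 0.025. Pof mutant replicate 2 correlated better with wild type replicate 3 (0.15), so the numbers were not taken as pairs. With the replicate block 0 genes were called higher and 0 lower. The block cannot move the median, which stayed at -0.075. Without detection calls it is unknown whether a dim probe set such as that of ple lay above background.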
